A study of Mus musculus with 12 samples.

Results

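The data were read for 6 genes of mouse chromosome 1, the chromosome that carries the myostatin gene Mstn, in the triceps brachii, a muscle of the upper forelimb. They were 4832428D23Rik, Lancl1, Ankrd23, Plekhb2, Ccdc115 and Ramp1, and were chosen by the measured difference of myostatin-reduced from wild-type mice over these same 12 samples, so the genotype difference is given here as a description that carries no test. All 6 were found among the 10187 genes of the table, of which 578 lay on chromosome 1, and all 6 passed a minimum mean of 10 that left 7247 genes (431 on chromosome 1) for testing. No cut-off was attached to the choice. By the size of the genotype difference the 6 genes ranked 1, 5, 11, 12, 17 and 25 among the 431, and Mstn ranked 2.

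The mice were male C57/BL6 in 4 groups of 3, which crossed genotype with activity. Inactive wild-type (IW) and active wild-type (AW) mice had the normal Mstn gene, whereas inactive (IM) and active (AM) myostatin-reduced mice had exon 3 of Mstn floxed, that is, flanked by sites at which Cre recombinase cuts it out. Chow with 0.025% tamoxifen was fed to all 12 mice, wild-type included, for 6 weeks before 6 months of age, and myostatin was depleted through Cre recombinase in the floxed mice. Active mice were then moved to single cages with a running wheel for 12 weeks. The paper states that the mice sampled from both genotypes were matched by how they ran, and the labels do not name matched mice. Whether inactive mice were also caged singly is not given in the sources used here, so running and single housing cannot be told apart. The promoter of the Cre gene, whether wild-type mice carried Cre and whether they were littermates of the floxed mice are not given in the sources used here, so the loss of myostatin cannot be told apart from anything else that differs between the floxed and wild-type mice.

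Polyadenylated RNA was sequenced and the value of a gene is a normalized read count, that is, its reads after scaling to an equal trimmed mean in every sample. Estimated depth was 9024431 to 12185351 reads per sample, and 3 reads, taken as the floor for counting error, corresponded to 0.231 to 0.316 normalized reads. Mstn was at 79.7 to 138 normalized reads in the 6 wild-type mice and at 8.70 to 21.6 in the 6 myostatin-reduced mice, and no sample went against its label. Markers of fast fibres summed to 145420 to 219882 normalized reads per sample with 7 of 7 genes present, and those of slow fibres (7 of 7) summed to 47.4 to 1569.8, with wide ranges in 3 groups (51.7 to 1189 in IW, 102 to 1569.8 in AW and 56.4 to 1127 in AM mice) and a narrow one in IM mice (47.4 to 71.7). The fast-fibre list was Acta1, Ckm, Myh4, Myh1, Tnnt3, Tnni2 and Pvalb. Acta1 and Ckm are not limited to fast fibres, so the sum does not measure fast fibres alone. Summed values of the other lists were 206 to 455 for endothelium (5 of 5 in the table), 34.0 to 105 for smooth muscle, 431 to 672 for fibroblasts, 102 to 226 for adipocytes, 39.9 to 63.4 for leukocytes and 22.6 to 75.3 for Schwann cells, and no marker in the table was at 0 in any sample. None of the marker genes tested was called for genotype, at a limma adjusted p under 0.05, against 5.78% of all tested genes. For activity 4 of 5 endothelial, 2 of 7 fast-fibre and 1 of 2 adipocyte markers were called, against 14.5% of all tested genes. In whole muscle, fewer cells of a type and less RNA per cell cannot be told apart.

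Myostatin is a secreted factor of the TGF-beta family that restrains muscle growth, and it signals through activin receptors and SMAD transcription factors. The 6 genes have different roles. 4832428D23Rik is the older name of Mettl21e, a member of the METTL21 family of protein lysine methyltransferases. Ankrd23 encodes a muscle ankyrin repeat protein that binds titin in the sarcomere. Lancl1 encodes a LanC-like protein that binds glutathione. Ramp1 encodes the accessory protein that turns the calcitonin receptor-like receptor into the receptor for the neuropeptide CGRP. Plekhb2, also called evectin-2, is a phospholipid-binding protein of recycling endosomes, and Ccdc115 is an assembly factor of the vacuolar proton pump (V-ATPase).

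The 6 genes lay on both sides of Mstn. In the mm9 build (NCBIM37), which is that of the deposited values, Mstn starts at chr1:53118507, with Ccdc115 at chr1:34493516-34496517, Plekhb2 at chr1:34906804-34936425, Ankrd23 at chr1:36587379-36592584 and 4832428D23Rik at chr1:44260915-44275806 before it. Lancl1 (chr1:67047091-67085446) and Ramp1 (chr1:93076399-93121773) lay after it. The distance between gene starts was 8.86 Mb for 4832428D23Rik, 13.9 Mb for Lancl1, 16.5 Mb for Ankrd23, 18.2 Mb for Plekhb2, 18.6 Mb for Ccdc115 and 39.96 Mb for Ramp1. Plekhb2 and Ramp1 are on the plus strand and the other 4 on the minus strand. All 6 are annotated as protein-coding. Of the 6, only 4832428D23Rik overlapped another annotated gene, Gm15833 on the opposite strand, whose reads cannot be told apart from its own because the use of strand was not stated. No stretch of 65 bases, the read length, in the annotated coding transcripts of the 6 genes was shared with a transcript of another protein-coding gene.

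Promoters of 5 of the 6 genes were found in the RefSeq table (build GRCm38.p6), each holding 250 bases before the start of the gene and 50 after it. The promoters of the 3 genes with a single listed start are printed, because all 3 had lower values in myostatin-reduced mice and the window of Ccdc115 also covers the start of a neighbour, Imp4, whose values are given further on. Capitals mark every match on either strand to CAGAC (the core of SMAD CAGA elements), to CANNTG (the general E-box, not only that of myogenic factors) or to GGGCGG (a GC box). No marked matches overlap.
Ccdc115 (chr1:34439623-34439922, minus strand): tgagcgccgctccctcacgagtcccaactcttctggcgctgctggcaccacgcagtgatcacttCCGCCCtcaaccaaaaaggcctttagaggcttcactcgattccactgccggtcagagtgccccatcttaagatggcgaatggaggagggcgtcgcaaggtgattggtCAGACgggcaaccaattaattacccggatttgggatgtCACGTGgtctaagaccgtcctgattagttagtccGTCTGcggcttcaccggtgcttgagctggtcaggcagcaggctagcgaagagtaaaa
Lancl1 (chr1:67038785-67039084, minus strand): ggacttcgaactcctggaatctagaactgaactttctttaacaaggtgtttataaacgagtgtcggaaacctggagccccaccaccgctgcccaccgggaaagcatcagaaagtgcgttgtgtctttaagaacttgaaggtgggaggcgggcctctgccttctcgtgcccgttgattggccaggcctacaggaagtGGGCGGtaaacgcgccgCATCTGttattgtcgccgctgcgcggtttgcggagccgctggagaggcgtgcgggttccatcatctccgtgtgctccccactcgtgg
Ramp1 (chr1:91179572-91179871, plus strand): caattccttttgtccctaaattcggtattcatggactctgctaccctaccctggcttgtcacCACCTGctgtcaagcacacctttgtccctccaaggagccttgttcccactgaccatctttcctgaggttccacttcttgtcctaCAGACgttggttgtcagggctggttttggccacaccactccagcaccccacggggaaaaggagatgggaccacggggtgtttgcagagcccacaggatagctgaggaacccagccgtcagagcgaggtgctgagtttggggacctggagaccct
The window of Ccdc115 held 2 matches to CAGAC, that of Ramp1 held 1 and that of Lancl1 held 0, whereas 49.6% of all 32851 promoters of the table held at least 1. Each of the 3 windows held 1 match to CANNTG, as did 72.3% of all promoters with 1 or more. A GC box was found once each in Ccdc115 and Lancl1 and not in Ramp1 (35.7% of all promoters). No MEF2 element (in 3.69% of all promoters) was found in any listed promoter of the 5 genes, and only Lancl1 had the letters TATAAA, read on both strands, with 2 matches that overlap (13.6% of all promoters). The promoter of 4832428D23Rik is not printed.

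**Figure D1:**
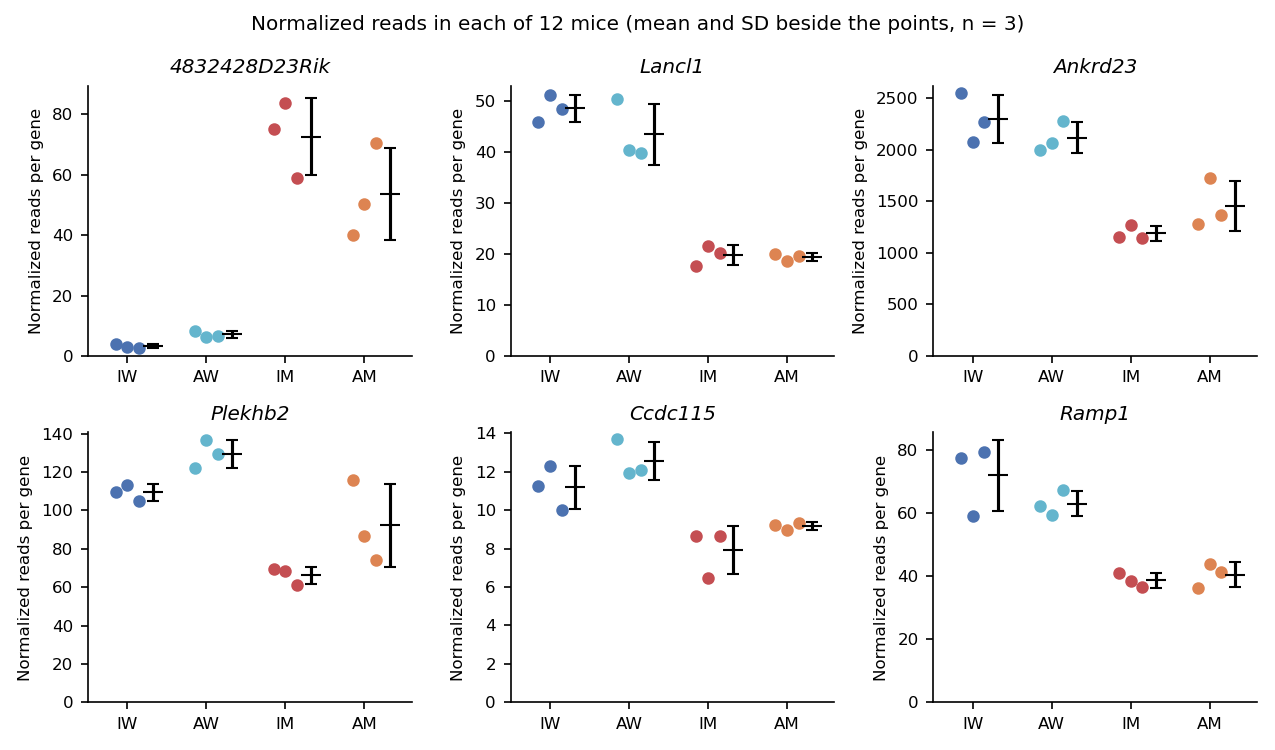
Normalized reads per gene (linear axes from 0) of the 6 genes in each mouse, with groups on the horizontal axis, 1 point per mouse, and the mean with its SD (n = 3) beside the points. 4832428D23Rik sits at 2.71 to 8.40 in wild-type and at 40.2 to 83.8 in myostatin-reduced mice, and the other 5 genes are lower in myostatin-reduced mice within each activity level.

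The farthest apart were the values of 4832428D23Rik (Mettl21e), the only gene of the 6 that was higher in myostatin-reduced mice. The IW mice had 3.95, 2.95 and 2.71 normalized reads and the AW mice 8.40, 6.33 and 6.67. The IM mice had 75.2, 83.8 and 58.9, and the AM mice 40.2, 50.3 and 70.4. The lowest myostatin-reduced value (40.2) thus stood far above the highest wild-type value (8.40). The group means were 3.20 ± 0.658 (IW), 7.13 ± 1.11 (AW), 72.6 ± 12.7 (IM) and 53.6 ± 15.4 (AM; SD, n = 3), a ratio of 22.7 among inactive and of 7.52 among active mice. An estimated 26.0 to 97.1 reads lay behind the wild-type values and 479 to 922 behind the others, so that the low wild-type level was above the floor of 3 reads in each mouse. On the scale of log2(value + 1) the genotype difference was 3.42, ranked 1 of the 7247 genes tested.

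The 5 other genes were lower in myostatin-reduced mice. Lancl1, the glutathione-binding protein gene, was at 45.9, 51.2 and 48.3 normalized reads in IW mice and at 50.3, 40.3 and 39.8 in AW mice. It was at 17.7, 21.6 and 20.2 in IM mice and at 19.99, 18.6 and 19.6 in AM mice. The genotypes did not overlap, and the lowest wild-type mouse (39.8) stood above the highest myostatin-reduced mouse (21.6). The mean was 59.1% lower among inactive and 55.4% lower among active mice, and the log2 difference was -1.18.

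Ankrd23, the titin-binding ankyrin repeat gene, was the most abundant of the 6. It had 2547, 2076 and 2271 normalized reads in IW mice and 1998, 2067 and 2283 in AW mice. The IM mice had 1152, 1269.8 and 1145 and the AM mice 1276, 1729.8 and 1362. All wild-type mice were above all myostatin-reduced mice, with AM mouse 2 the nearest. The mean was 48.2% lower among inactive and 31.2% lower among active mice (log2 difference -0.75).

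Ramp1, the CGRP receptor component, was at 77.5, 59.0 and 79.4 normalized reads in IW mice and at 62.4, 59.4 and 67.3 in AW mice. It was at 41.1, 38.5 and 36.5 in IM mice and at 36.2, 43.9 and 41.4 in AM mice. The genotypes did not overlap. The mean was 46.3% lower among inactive and 35.7% lower among active mice, with a log2 difference of -0.75.

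Plekhb2, the recycling endosome gene, was at 109.8, 113 and 105 normalized reads in IW mice and at 122, 137 and 129 in AW mice. It was at 69.25, 68.4 and 61.2 in IM mice and at 116, 86.7 and 73.9 in AM mice. Within each activity level the genotypes were apart, but AM mouse 1 (116) was above all 3 IW mice, so that Plekhb2 was the only one of the 6 in which the 6 mice of one genotype overlapped the 6 of the other. The mean was 39.4% lower among inactive and 28.8% lower among active mice (log2 difference -0.61).

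Ccdc115, the V-ATPase assembly factor gene, had the lowest mean over all mice and the smallest difference of the 6. Its normalized reads were 11.2, 12.3 and 10.02 in IW mice and 13.7, 11.9 and 12.1 in AW mice. The IM mice had 8.64, 6.46 and 8.63 and the AM mice 9.24, 8.94 and 9.33. No myostatin-reduced mouse reached the lowest wild-type mouse (10.02), although 71.1 to 158 estimated reads per sample leave a wide counting error. The mean was 29.2% lower among inactive and 27.0% lower among active mice, with a log2 difference of -0.43.

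In the genotype contrast 5.78% of all tested genes were called (limma, adjusted p under 0.05), 3.57% higher and 2.21% lower in myostatin-reduced mice. The 6 genes lie among them because this contrast chose them, so that nothing is read from their number. The choice likewise bears on their separation, with all 6 apart within both activity levels (5.37% of tested genes) and 5 of the 6 in all mice of one genotype against all of the other (2.39%). In all 6 the log2 difference was larger in inactive than in active mice, as it was in 71.8% of the genes called for genotype and in 54.7% of all genes tested. The spread between mice of a group, as the pooled SD of log2(value + 1), was 0.28 for 4832428D23Rik and 0.12 to 0.18 for the other 5, against a median of 0.12 over all genes tested. The summed values of the fast-fibre list, which holds Acta1 and Ckm, were at 168027 to 198665 in IW and 209745 to 219882 in IM mice, without overlap, and at 145420 to 173772 in AW and 154632 to 194449 in AM mice, with overlap. The endothelial sum was likewise apart in inactive mice (239 to 305 in IW and 206 to 212 in IM mice) and overlapped in active mice, and the slow-fibre sum was low in all 3 IM mice but overlapped with IW mice. The part of fibre types and vessels in the differences of the 6 genes was not tested.

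Levels of different genes were compared per kb of annotated exon. Reads were counted by the authors in RefSeq exons, so the order depends on the exon length used, most of all for Plekhb2. Its coding transcripts held 3411 stretches of 65 bases against 8004 exon bases, whereas Ramp1 had 3021 against 3022. The place of Plekhb2 in the order is therefore uncertain. In IW mice Ankrd23 was at 1169.9 normalized reads per kb, Ramp1 at 23.8 ± 3.73, Plekhb2 at 13.7 ± 0.540, Lancl1 at 10.9 ± 0.593, Ccdc115 at 6.56 ± 0.661 and 4832428D23Rik at 0.809 ± 0.166 (SD, n = 3). In IM mice Ankrd23 (605 ± 35.6) was still the highest, and 4832428D23Rik moved from the last to the second place with 18.3 ± 3.20. It was followed by Ramp1 (12.8 ± 0.770) and Plekhb2 (8.28 ± 0.553). Ccdc115 (4.64 ± 0.737) and Lancl1 (4.44 ± 0.437) differed there by less than their SD. In AM mice 4832428D23Rik (13.5 ± 3.88) and Ramp1 (13.4 ± 1.30) likewise differed by less than either SD, whereas Plekhb2 (11.5 ± 2.69) was below Ramp1 by more than the SD of Ramp1 and less than its own.

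The comparison of active with inactive mice, in which running and single housing cannot be told apart, did not enter the choice of the 6 genes. It was tested in limma across all 7247 genes, of which 14.5% were called, 7.99% higher in active mice. Of the 6 genes, 1 was called. Plekhb2 rose with activity by 0.34 on the log2 scale (SE 0.089, adjusted p = 0.0234), from a mean of 109.4 ± 4.32 in IW to 129 ± 7.25 in AW and from 66.3 ± 4.43 in IM to 92.2 ± 21.5 in AM mice (normalized reads, SD, n = 3). All active mice stood above all inactive mice of the same genotype, which occurred in 7.81% of tested genes. Within a genotype the change was 0.45 in myostatin-reduced mice (limma adjusted p = 0.0484, 7.84% of genes called) and 0.24 in wild-type mice (adjusted p = 0.402, 0.0276% called). The call within myostatin-reduced mice was lost in 10 of 12 fits made without a single mouse, all but those without AW mouse 1 or AM mouse 3. Its adjusted p reached 0.141, and the change ran from 0.27 (without AM mouse 1) to 0.59 (without AM mouse 3). The call averaged over genotypes was lost in 4 of these 12 fits, without IW mouse 3, AW mouse 2, AW mouse 3 or IM mouse 3 (adjusted p from 0.0507 to 0.0620), while the change remained between 0.26 and 0.42. Markers of endothelium moved in the same contrast, with Pecam1 (0.47, adjusted p = 0.0308), Kdr (0.53, adjusted p = 0.0281), Tek (0.49, adjusted p = 0.0122) and Tie1 (0.63, adjusted p = 0.0119) higher in active mice and the summed level at 206 to 212 in IM against 268 to 455 in AM mice. In wild-type mice the summed level overlapped, at 239 to 305 in IW and 241 to 409 in AW mice. Of the fast-fibre markers Myh1 rose (1.51, adjusted p = 0.0019) and Myh4 fell (-0.57, adjusted p = 0.0127) with activity, and of the adipocyte markers Fabp4 rose (0.64, adjusted p = 0.00331). The part of these cells and fibres in the level of Plekhb2 was not tested.

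The other 5 genes did not pass in the activity contrast. Of these, 4832428D23Rik and Ccdc115 reached the minimum mean of 10 only through the genotype in which they are high, since 4832428D23Rik had a mean of 5.17 in wild-type mice and Ccdc115 of 8.54 in myostatin-reduced mice. With no filter, where 10187 genes were tested, their adjusted p was 0.251 and 0.196, and a pseudocount of 4 lowered the change of 4832428D23Rik to 0.099. 4832428D23Rik differed by 0.25 (95% interval -0.04 to 0.55, limma adjusted p = 0.234) and Ccdc115 by 0.18 (-0.01 to 0.37, adjusted p = 0.187). Ankrd23 differed by 0.08 (-0.09 to 0.26, adjusted p = 0.520), Lancl1 by -0.09 (-0.25 to 0.06, adjusted p = 0.387) and Ramp1 by -0.06 (-0.23 to 0.11, adjusted p = 0.644). Leaving out a mouse moved these changes by more than 1.5 times but passed none of them, with ranges of 0.15 (without AM mouse 3) to 0.34 (without AM mouse 1) for 4832428D23Rik, 0.017 (AM mouse 2) to 0.13 (AM mouse 1) for Ankrd23 and 0.12 (IM mouse 2) to 0.21 (IW mouse 2) for Ccdc115. They were -0.15 (AW mouse 1) to -0.065 (IM mouse 2) for Lancl1 and -0.13 (IW mouse 2) to -0.020 (AM mouse 1) for Ramp1. The median absolute activity change was 0.14 over the 6 genes and 0.10 over all genes tested. Ccdc115 and Ankrd23 were higher in every AM than in every IM mouse, a separation found in 29.8% of tested genes.

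The interaction, the genotype difference of active minus that of inactive mice, was called for 0 of the 6 genes and for 0 of 7247 genes in limma, with 297 genes (4.1%) at an unadjusted p under 0.05. Of the 6 genes, Ankrd23 and 4832428D23Rik were among those 297. The latter reached the minimum mean only through myostatin-reduced mice, so nothing is read from this number. The count of genes moved when a single mouse was left out, to 829 without AM mouse 1, 475 without IW mouse 2, 197 without IW mouse 3 and 177 without AM mouse 2, and was 454 with no filter on low values and 453 with array weights. 4832428D23Rik had an interaction of -1.41 (95% interval -2.00 to -0.82, adjusted p = 0.890). This value rests on wild-type means below the minimum of 10 and moved with the pseudocount, to -1.50 at 0.5 and -1.06 at 4. Its reads were more numerous in every AW than in every IW mouse, 7.13 against 3.20 on average (log2 change 0.95, not called and given as a description at this level), a separation found in 17.5% of tested genes. In myostatin-reduced mice the change was -0.45 (adjusted p = 0.158), from -0.66 without AM mouse 3 to -0.27 without AM mouse 1, and IM and AM mice overlapped. Ankrd23 had an interaction of 0.40 (0.05 to 0.75, adjusted p = 0.890), with a change with activity of -0.12 in wild-type and 0.28 in myostatin-reduced mice, the latter from 0.15 without AM mouse 2 to 0.37 without AM mouse 1. The interactions of Ramp1 (0.24), Plekhb2 (0.21), Lancl1 (0.14) and Ccdc115 (0.04) had 95% intervals that contained 0, the widest upper bound being 0.59 for Plekhb2. Leaving out a mouse moved them widely, from 0.030 (without AM mouse 1) to 0.35 (without AM mouse 3) for Plekhb2, from 0.060 (without IM mouse 1) to 0.24 (without AW mouse 1) for Lancl1 and from 0.17 (without IW mouse 3) to 0.38 (without IW mouse 2) for Ramp1, and that of Ccdc115 changed sign.

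**Figure D2:**
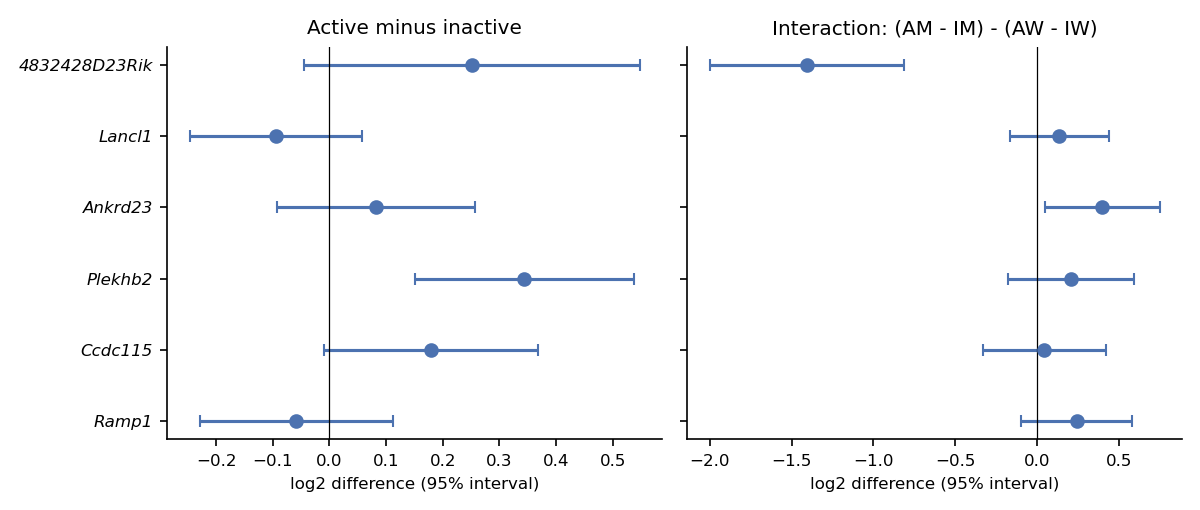
Log2 difference between active and inactive mice (left) and the interaction (right) for each gene, with points at the limma estimate over 12 mice and bars for its 95% interval before adjustment. The interval of Plekhb2 for activity (0.15 to 0.54) and those of 4832428D23Rik and Ankrd23 for the interaction lie apart from 0. The interaction of 4832428D23Rik rests on wild-type values below the minimum mean (2.71 to 8.40), so its interval is a description only. Its estimate moved with the pseudocount, to -1.50 at 0.5 and -1.06 at 4. No interaction passed adjustment over all genes.

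The genotype difference of each gene was set beside that of its nearest tested genes, up to 3 on each side. The 31 neighbours that were not themselves among the 6 had differences from -0.51 to 0.23, and 1 of them was called (5.78% of tested genes). Around 4832428D23Rik the 6 neighbours were between -0.07 and 0.18, against 3.42 for the gene itself. The neighbours of Ankrd23 were between -0.16 and 0.14, those of Ramp1 between -0.14 and 0.23, those of Plekhb2 between -0.10 and 0.12 and those of Ccdc115 between -0.06 and 0.12. Fam168b, whose start lies 36.7 kb from that of Plekhb2, had a genotype difference of 0.03. Around Lancl1, the 3 genes on the side towards Mstn had negative differences, of which 1 was called. These were 1110028C15Rik (-0.36, called), the mitochondrial acyl-CoA dehydrogenase gene Acadl (-0.51, not called) and the fast myosin light chain gene Myl1 (-0.21, not called). The 3 on the other side were at 0.02 to 0.20.

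**Figure D3:**
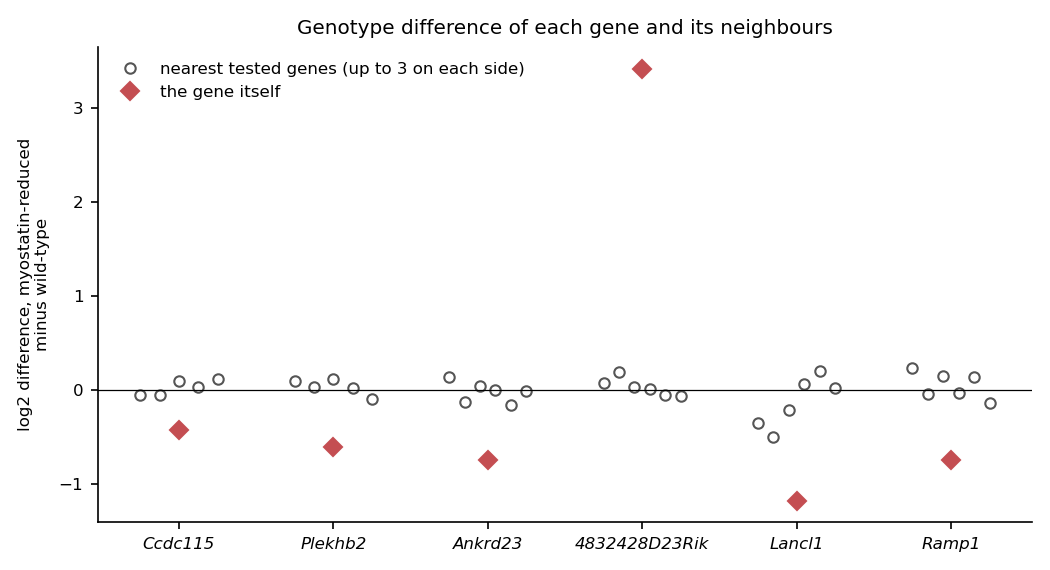
Log2 genotype difference (myostatin-reduced minus wild-type) of each of the 6 genes (diamonds) and of its nearest tested genes on chromosome 1 (circles), in chromosome order. The 31 neighbours lie between -0.51 and 0.23, whereas the 6 genes lie at 3.42 and between -1.18 and -0.43.

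Genes whose means fell below the minimum were read from the table without a test. Imp4, a ribosome assembly gene, starts on the opposite strand 179 bases from Ccdc115, and the printed promoter covers the starts of both. Its normalized reads were 7.82, 9.59 and 8.35 in IW, 9.09, 9.86 and 9.05 in AW, 8.64, 8.28 and 8.82 in IM and 9.66, 8.47 and 7.79 in AM mice. The genotypes overlapped for Imp4 at both activity levels, with a mean 3.91% lower in myostatin-reduced mice, against 28.0% for Ccdc115. Ankrd39 lies 2434 bases beyond Ankrd23 on the same strand. It was at 7.55, 7.20 and 8.56 in IW and 5.69, 5.91 and 3.86 in IM mice, without overlap, and at 8.14, 6.43 and 8.89 in AW and 6.97, 6.70 and 6.92 in AM mice, with overlap.

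Along chromosome 1, genotype calls were counted by distance from Mstn, leaving out the 6 genes and Mstn. They were 1 of 19 tested genes within 5 Mb, 2 of 27 at 5 to 10 Mb, 8 of 76 at 10 to 25 Mb, 7 of 80 at 25 to 50 Mb and 16 of 222 farther away. With all genes kept, 41 of 431 (9.51%) were called on chromosome 1 and 5.55% on the other chromosomes, among which the share ran from 3.09% to 9.39%. Without the 6 genes and Mstn the share on chromosome 1 was 8.02%. Of the 34 other called genes 15 were higher and 19 lower in myostatin-reduced mice. Activity calls were 15.1% on chromosome 1 and 14.5% on the others. Genes with a larger genotype difference than Lancl1 that were not chosen included Mybph (1.23), a myosin-binding protein gene, and Tnni1 (-1.47), the slow troponin I gene, which was not called. Igfbp5 (1.13), a binding protein of insulin-like growth factors, ranked just below Lancl1.

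**Figure D4:**
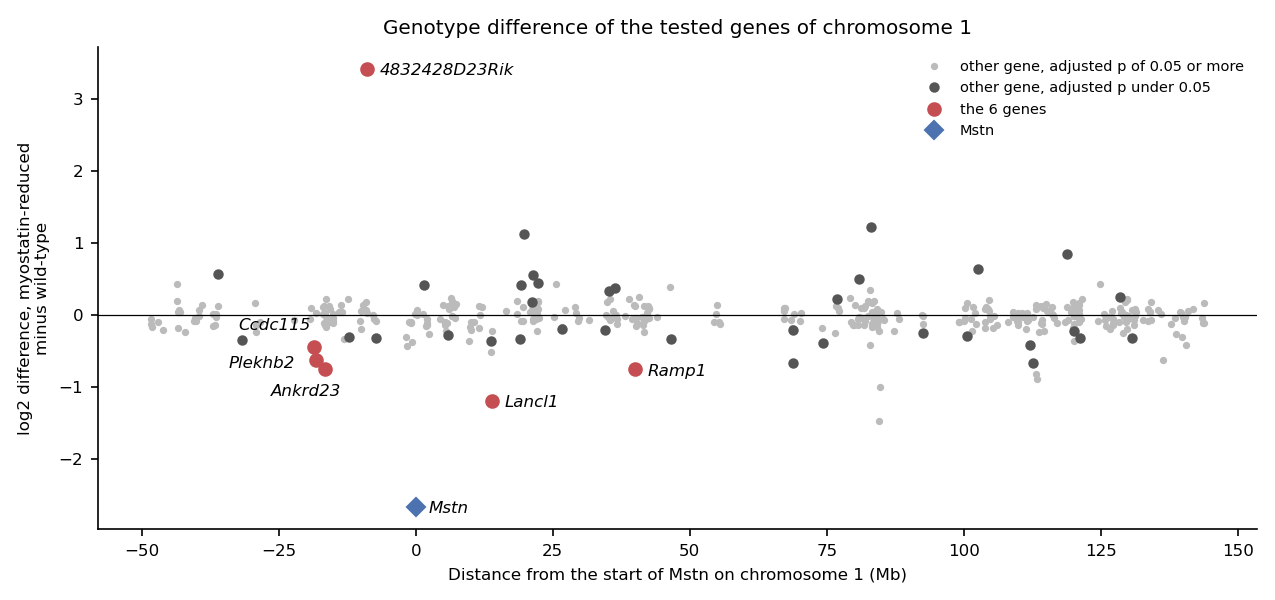
Log2 genotype difference of 431 tested genes of chromosome 1 against the distance of their start from that of Mstn in Mb, with the 6 genes in red, Mstn as a diamond, and other genes in dark grey where called. The 34 other called genes are spread over the chromosome and lie on both sides of 0, and 4832428D23Rik and Mstn are the farthest from 0.

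A530098C11Rik, the older name of Mettl21c and thus a member of the same family, lies 184 kb from 4832428D23Rik on the same strand and overlaps another annotated gene, Gm15838. It was at 141, 204 and 175 normalized reads in IW and 125, 120.3 and 114 in AW mice, and at 201, 192 and 172 in IM and 134, 106 and 197 in AM mice. The genotypes overlapped at both activity levels (genotype log2 difference 0.18, limma adjusted p = 0.433). With activity it fell by 0.46 (SE 0.129, adjusted p = 0.0325), and the AM mice were spread from 106 to 197. Per kb of exon it was at 40.2 ± 7.36 in IW and 43.8 ± 3.37 in IM mice, above 4832428D23Rik in both. Its annotated exons span 4300 bases, but its coding transcript held 1022 stretches of 65 bases, so its level per kb depends on the length used. Mettl21a, also on chromosome 1, was at 3.45 ± 0.330 per kb in IW and 3.63 ± 0.287 in IM mice (genotype log2 difference 0.14, adjusted p = 0.277). In the list of the METTL21 family and related methyltransferases, which also holds the substrate gene Vcp, 6 genes besides 4832428D23Rik were tested. Of these, 1 (Mettl11a, 0.32, adjusted p = 0.0495) was called for genotype, against 5.78% of all genes, and 1 (A530098C11Rik) for activity, against 14.5%, and the median genotype difference of the list was 0.16 against -0.0049 over all genes. Vcp, a known substrate of the family, differed by 0.11 (adjusted p = 0.307).

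**Figure D5:**
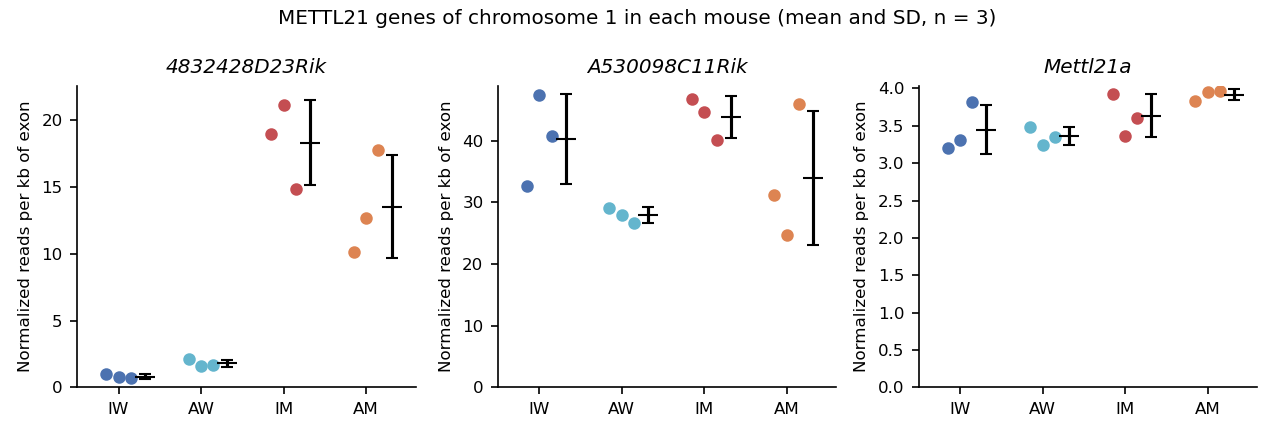
Normalized reads per kb of annotated exon (linear axes from 0) for 4832428D23Rik, A530098C11Rik and Mettl21a in each mouse by group, with the mean and SD (n = 3). The genotypes are apart for 4832428D23Rik (0.809 in IW and 18.3 in IM mice), whereas A530098C11Rik was at 40.2 in IW and 43.8 in IM mice with overlapping values. The level of A530098C11Rik per kb depends on the exon length used.

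Known partners of the other 5 genes were taken from lists, whose counts of calls stand against 5.78% of all tested genes for genotype and 14.5% for activity. Of the muscle ankyrin repeat and titin partners, 9 besides Ankrd23 were tested. For genotype, Mypn (0.35, adjusted p = 0.0103), the gene of myopalladin, and Ldb3 (0.21, adjusted p = 0.0279), a Z-disc gene, rose, and Capn3 (-0.19, adjusted p = 0.0224), the titin-bound protease, fell in limma. With activity Ankrd2 (1.74, adjusted p = 0.0213), Casq2 (1.34, adjusted p = 0.00306) and Myot (0.18, adjusted p = 0.0307) rose and Mypn (-0.21, adjusted p = 0.0474) fell. Titin itself was not called in either contrast. Ankrd1, the third muscle ankyrin repeat gene, was below the minimum mean, and its values were 7.91, 9.69 and 7.31 in IW and 6.58, 8.61 and 10.8 in AW mice, against 3.69, 5.64 and 5.79 in IM and 2.60, 4.01 and 3.75 in AM mice. The 6 wild-type mice were all above the 6 myostatin-reduced mice for Ankrd1, as for Ankrd23, which was chosen by its genotype difference. Of tested genes 2.39% were apart in this way, in either direction, and Ankrd1 was not tested. Ankrd2 ranged from 9.87 to 37.6 in IW, 18.9 to 67.2 in AW, 2.66 to 11.8 in IM and 18.9 to 70.0 in AM mice, so that its genotypes overlapped at both activity levels. Slow-fibre markers summed to 47.4 to 71.7 in IM mice and 56.4 to 1127 in AM mice, and their part in these values was not tested.

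For the receptor of CGRP, 2 partners of Ramp1 were tested and 0 were called for genotype or activity, against 5.78% and 14.5% of all genes tested. Calcrl, the receptor that RAMP1 pairs with, was at 14.2 ± 3.38 in IW and 14.7 ± 0.654 in IM mice (genotype log2 difference 0.02, limma adjusted p = 0.939), and Crcp, the receptor component protein, differed by 0.05 (adjusted p = 0.732). Ramp2, the accessory protein of the adrenomedullin receptor, was below the minimum mean at 6.36 to 9.08 in IW, 7.96 to 10.4 in AW, 7.27 to 8 in IM and 5.71 to 13.3 in AM mice. Endothelial markers summed to 239 to 305 in IW and 206 to 212 in IM mice, whereas the values were 241 to 409 in AW and 268 to 455 in AM mice. Those of smooth muscle overlapped between genotypes, at 43.7 to 92.5 in IW and 41.0 to 67.6 in IM mice. The part of vessel content in the level of Ramp1 was not tested.

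Of 18 other tested V-ATPase subunit and assembly genes, 0 were called for genotype (5.78% of all genes tested) or activity (14.5%; limma, adjusted p under 0.05). Tmem199, which works with Ccdc115 in assembly, was at 13.3 ± 0.641 in IW and 12.98 ± 1.70 in IM mice (genotype log2 difference -0.03, adjusted p = 0.878). The median genotype difference of the list was -0.05, with single genes from -0.16 (Atp6v1h) to 0.15 (Atp6v0d1), against -0.43 for Ccdc115. Among 11 recycling endosome genes tested besides Plekhb2, 0 were called for genotype, against 5.78% of all genes, and 1 for activity, against 14.5%. The latter was Atp8a1, the gene of a phosphatidylserine flippase, which fell with activity by 0.55 (adjusted p = 0.00712). Plekhb1, the paralogue of Plekhb2, was at 104 ± 11.7 in IW and 114 ± 5.87 in IM mice (0.09, adjusted p = 0.611). In the LanC-like and glutathione list 10 genes were tested. Gpx4, a glutathione peroxidase, fell in myostatin-reduced mice by 0.20 (adjusted p = 0.0286), and Gclc and Gstm1 fell with activity (-0.43, adjusted p = 0.0102, and -0.34, adjusted p = 0.00321). Lancl2, the paralogue of Lancl1, was at 15.1 ± 1.06 in IW and 14.5 ± 1.08 in IM mice (-0.06, adjusted p = 0.659).

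Genes most like each of the 6 were found by Pearson r of log2(value + 1) over 12 samples. The genotypes form separate clusters in 5 of the 6 genes, all but Plekhb2, so r is a description with no p, and the r of deviations from group means is given beside it. For Lancl1 the first was Mstn itself (r = 0.975, rank correlation 0.888, 0.544 within groups), followed by Dkk3 (0.974, 0.505 within groups) and Pmepa1 (0.959, 0.448 within groups), a feedback inhibitor of TGF-beta signalling. Tmem37, a gene of chromosome 1, was most like Ramp1 (0.977, rank correlation 0.986, 0.952 within groups), followed by Ankrd23 (0.951, 0.680 within groups) and Gpx3 (0.946, 0.833 within groups). For Ankrd23 the first was Rcan1, a feedback regulator of calcineurin (0.963, 0.654 within groups), then Magix (0.961, 0.680 within groups) and Ramp1. Plekhb2 was most like Cdadc1 (0.944, 0.750 within groups), Socs5 (0.944, 0.950 within groups) and Agpat6 (0.923, 0.549 within groups). Ccdc115 was most like Cyb5r4 (0.893, 0.587 within groups), Kcna7 (0.878, 0.402 within groups) and Dnajb4 (0.877, 0.627 within groups). The genes most like 4832428D23Rik had lower r within groups, with Slc36a1, an amino acid transporter gene, at 0.929 over all samples and 0.307 within groups, Lpin1 at 0.925 and 0.110, and 4931406C07Rik at 0.919 and -0.600. Between pairs of the 6 genes the r within groups ran from -0.571 (Plekhb2 with 4832428D23Rik) to 0.680 (Ankrd23 with Ramp1). All genes of a sample share its library and depth.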

How the data were processed

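Polyadenylated RNA of 12 triceps brachii samples was read as 65-base single-end reads, which the authors mapped to mm9 with CASAVA (named in the submitters' processing notes, version not given in the sources used here) and counted in RefSeq exons. The deposited unit is a signal, namely read counts of genes that were scaled by the authors to an equal trimmed mean (5th percentiles trimmed). It is not divided by gene length, and whether strand was used is not given in the sources used here. The 6 genes and all lists were chosen with earlier results of these data known.

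Groups and replicate numbers came from the sample titles. Each sample is a mouse, the labels give no batch, and p-values measure the spread between mice of a group. The step between neighbouring low values gave the depth (0.0770 to 0.105 per read). Within 0.2 of a step, 93.0% to 95.3% of values under 5 and 65.9% to 83.4% of those between 20 and 50 were whole (40% by chance), so whole reads were not recovered and no count test was run. The floor of 3 reads covers counting error only.

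limma 3.58.1 in R 4.3.3 was run on log2(value + 1), which understates changes of low genes, for 7247 genes with a mean of at least 10. All 12 samples entered a model with a mean per group (eBayes with trend), p-values were two-sided and adjusted by Benjamini-Hochberg over all genes tested, and a call is an adjusted p under 0.05. The script was tested on simulated data. The genotype contrast chose the 6 genes and is a description for them. Genes named besides the 6 and Mstn are up to 3 tested neighbours on each side, the 3 genes most like each by Pearson r, and the called genes and defining partners of the lists. Chromosome 1 genes with differences near that of Lancl1, Imp4 and Ankrd39 were named after their values were seen. Positions came from the GENCODE vM1 annotation on NCBIM37 by symbol (10116 of 10187 genes matched), and exon length is the union of annotated exons. Promoters came from RefSeq (GRCm38.p6), and their coordinates are not those of mm9. Alternatives were pseudocounts of 0.5 and 4, no filter, median-of-ratios scaling, array weights, a replicate block, leaving out each mouse and, added after seeing the data, a replicate block among myostatin-reduced mice only. Plots were drawn with matplotlib 3.10.9 in Python 3.11.15.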

Additional observations from a re-analysis of the deposited data

How the results depend on the processing

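Of the 6 alternative settings, array weights moved the genes called for activity from 1051 to 1740, and a pseudocount of 4 moved the genotype difference of 4832428D23Rik from 3.42 to 2.87, since its wild-type values are low. Leaving out each mouse gave 552 to 1485 genes called for activity, with the lowest count without AW mouse 3, 180 to 579 for genotype against 419, and 0 to 1 for the interaction, the 1 being without IW mouse 3. The activity change of Plekhb2 ranged from 0.26 to 0.42 over these fits (limma adjusted p 0.00575 to 0.0620), and lost its call without IW mouse 3 (0.33), AW mouse 2 (0.32), AW mouse 3 (0.34) or IM mouse 3 (0.32). The interaction of Ccdc115, near 0, ranged from -0.08 to 0.11 and turned negative without IW mouse 2 (-0.02) or IM mouse 2 (-0.079). The cause of these shifts was not tested. Same-number correlations of deviations from group means were over 0.1 in 9 of 18 pairs (-0.605 to 0.484), and 15 of 36 comparisons were best with the same number, so pairing over all groups was not shown. For IM with AM all 3 were over 0.1 (0.171 to 0.322) and 6 of 6 were best with the same number, a hint from the data and not from the labels. With the replicate block over all mice, 1082 genes were called for activity, 0 for the interaction and 364 for genotype, and Plekhb2 had an adjusted p of 0.0201. With a replicate block among myostatin-reduced mice only, added after seeing the data, 628 genes against 568 were called for activity in these mice, Plekhb2 had an adjusted p of 0.0195 against 0.0484 and no call of the 6 genes changed. That of Plekhb2 was lost with no filter (0.0519) and with median-of-ratios scaling (0.0509). The change of Lancl1 in these mice (-0.027) ranged from -0.10 to 0.033 over the fits without a mouse and turned positive without IM mouse 2 (0.033) or AM mouse 2 (0.0030). Among the 6 genes, estimated reads were fewest for 4832428D23Rik in wild-type mice and for Ccdc115.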
